A study of Mus musculus with 2 samples.

Results

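Neurotransmitter receptor genes were examined in a map of Dnmt1 binding in mouse cleavage embryos. Peaks were taken as receptor peaks where the gene name assigned in the deposited table was that of an ionotropic or metabotropic glutamate receptor (Gria, Grid, Grik, Grin, Grm), a GABA receptor of the ionotropic kind (Gabr), a muscarinic or nicotinic acetylcholine receptor (Chrm, Chrn), a serotonin receptor (Htr) or a glycine receptor (Glra, Glrb). This gave 77 of 8226 peaks, at 34 genes. Glutamate receptors held 43 of them at 14 genes, GABA receptors 10 at 8 genes, acetylcholine receptors 12 at 5 genes, serotonin receptors 9 at 5 genes and glycine receptors 3 at 2 genes. Names alone decided the choice, with no peak height used.

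The assay was DamID, in which a protein is fused to Dam, a bacterial enzyme that methylates the adenine of GATC sites, so that sites near the bound protein carry the mark. A Dnmt1-V5-Dam construct was injected into one batch of embryos and Dam alone into the other, with 50 embryos of each at the 4- to 8-cell stage pooled into 1 library per group. Both groups were BCF1 (C57BL/6 x CBA/CA) zygotes taken from females of 5 weeks, and both carry injected Dam. Because the fusion was introduced by injection and the embryos were pooled, neither the embryo's own Dnmt1 level nor differences between embryos can be read from these libraries. With 1 library per group, no value below has a replicate check and no p-value was computed. The authors gave 1 height per library at each peak, as whole numbers from 7 upward for Dnmt1-Dam and from 1 upward for Dam-only. No read totals per library were found in the labels or the table, and the depth is therefore unknown. Positions are in mm9.

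Dnmt1 copies CpG methylation onto the new DNA strand after replication. Ionotropic receptors are ion channels that open when the transmitter binds, and they carry fast signals between nerve cells. Metabotropic receptors act through G proteins and are slower. Glutamate is the main excitatory transmitter of the mammalian brain, GABA and glycine are the main inhibitory ones, and acetylcholine and serotonin have modulatory roles in the brain and act in many other tissues. These genes are known for their function in neurons and muscle, long after the cleavage stages.

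Of the 34 genes, only Chrm4 had a peak of the proximal promoter class, and only Grid1 and Glra3 had peaks of the distal promoter class. The proximal class held 1 of 77 receptor peaks (1.30%, exact 95% interval 0.0329 to 7.02) and 2.66% of all peaks. The distal class held 3 of 77 (3.90%, 0.811 to 10.97) and 4.07% of all peaks, so both intervals contain the share over all peaks. In the deposited table proximal promoter peaks lay at most 2.98 kb upstream and 0.994 kb downstream of the start, and distal promoter peaks 3.005 to 9.998 kb upstream. The 250 bases before the start are shown for Chrm4 and Glra3, as genes with a promoter peak, and for Chrm3, as the acetylcholine receptor gene with the most peaks. They are from RefSeq, build GRCm38.p6, at chr2:91921939-91922188 on the plus strand for Chrm4, chr8:55940168-55940417 on the plus strand for Glra3 and chr13:10360804-10361053 on the minus strand for Chrm3. Capitals mark CG, the dinucleotide that Dnmt1 methylates, and GATC, the site of Dam.
Chrm4: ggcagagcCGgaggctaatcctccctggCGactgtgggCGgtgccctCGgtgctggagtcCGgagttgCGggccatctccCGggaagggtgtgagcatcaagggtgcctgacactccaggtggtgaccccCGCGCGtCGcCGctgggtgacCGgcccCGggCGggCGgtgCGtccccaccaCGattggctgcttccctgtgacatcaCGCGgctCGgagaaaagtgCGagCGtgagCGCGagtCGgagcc
Glra3: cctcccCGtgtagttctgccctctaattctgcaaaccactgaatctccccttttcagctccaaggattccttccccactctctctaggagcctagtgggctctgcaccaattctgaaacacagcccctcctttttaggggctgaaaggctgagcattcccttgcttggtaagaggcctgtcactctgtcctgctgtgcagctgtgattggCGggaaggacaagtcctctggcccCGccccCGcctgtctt
Chrm3: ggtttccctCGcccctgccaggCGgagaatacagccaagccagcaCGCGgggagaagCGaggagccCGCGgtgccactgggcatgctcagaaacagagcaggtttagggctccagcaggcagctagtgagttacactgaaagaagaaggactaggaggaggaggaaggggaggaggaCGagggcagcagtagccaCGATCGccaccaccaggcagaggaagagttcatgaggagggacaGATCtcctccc
The Chrm4 window held 26 CG and no GATC, the Glra3 window 4 CG and no GATC, and the Chrm3 window 10 CG and 2 GATC, 1 of them flanked by CG on either side so that the letters overlap. Of the 34 genes, 22 were matched in the RefSeq promoter table, with 28 windows, and 8 of these windows (28.6%) held GATC. Over all 32851 windows of the same 250 bases the share with GATC was 41.9%, and it was 41.9% in 43 windows of receptor genes without a peak. Some genes gave more than 1 window, so windows are not independent. No interval was computed for these shares and their difference was not tested. The median number of CG was 8 in windows of receptor genes with a peak by name and also 8 in those of receptor genes without one, against 6 in all windows. GATC reads the same on both strands, as does CG. The peak of Chrm4 lay 1.23 kb and that of Glra3 8.66 kb upstream of the start that the deposited table gives in mm9, so the letters above describe the promoters and not the peaks.

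Receptor peaks were of the height usual in the list. The Dnmt1-Dam height had a median of 9 (interquartile range 8 to 11) at receptor peaks and a median of 9 (7 to 11) at all peaks. The smallest height in the list, 7, was found at 14 of 77 receptor peaks (18.2%) and at 2206 of all 8226 (26.8%). The Dam-only height was 1 at 60 of 77 receptor peaks (77.9%, exact 95% interval 67.0 to 86.6) and at 75.8% of all peaks. A Dnmt1-Dam height of at least 10 times the Dam-only height was found at 18 of 77 (23.4%, 14.5 to 34.4), and the background over all peaks is 23.4%. After scaling to the sums over all peaks, with a pseudocount of 1, the log2 ratio of the Dnmt1-Dam to the Dam-only height had a median of 0.21 at receptor peaks and of 0.21 at all peaks. Every listed peak has a Dnmt1-Dam height at least 2 times its Dam-only height, so no ratio here shows how often the fusion exceeds Dam alone. By these measures the middle of the receptor set and the middle of the whole list coincided. Intervals here and below are exact 95% intervals, and they cover counting error only, since peaks of 1 gene or close neighbors are not independent.

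**Figure D1:**
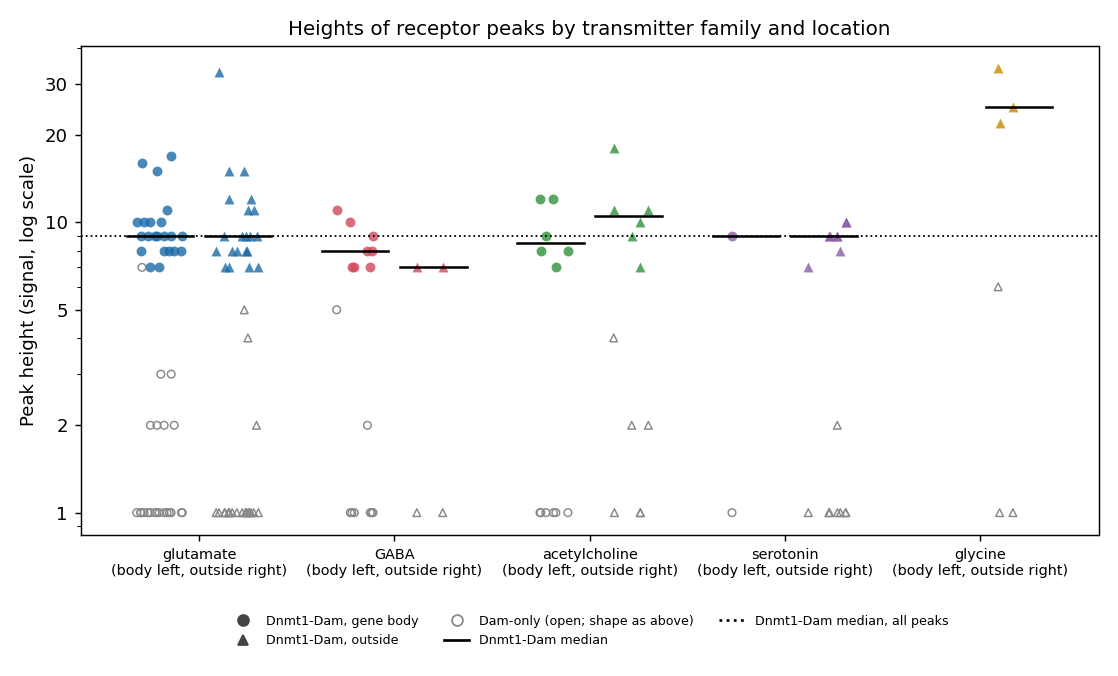
Peak heights on a log axis for each transmitter family, with peaks in the gene body on the left of each pair and peaks outside on the right. Filled symbols are Dnmt1-Dam heights, open symbols Dam-only heights of the same peaks, bars the Dnmt1-Dam medians and the dotted line the median of all peaks (9). The 3 glycine receptor peaks (22, 25 and 34) are all outside the body, and 1 of them (34) is the highest point.

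At the upper end, 10 of 77 receptor peaks reached a Dnmt1-Dam height of 15 or more (13.0%, 6.41 to 22.6), and the background over all peaks is 8.66%. The highest belonged to the glycine receptors, the chloride channels of spinal cord and brainstem inhibition. Glra1, which encodes the main adult alpha subunit, had peaks of 34 against 6 and of 25 against 1, each a Dnmt1-Dam height against a Dam-only height. These lay 100 bp apart on chromosome 11, at 55537151 and 55537251, about 116 kb upstream of the gene. Glra3, which encodes an alpha subunit of dorsal horn synapses, had 1 peak of 22 against 1 on chromosome 8 at 58410961, in its distal promoter class. All 3 glycine receptor peaks were named as LINE sequence, 1 of them also as SINE. In the whole list LINE was named at 8.18% of peaks, and 131 of the 8226 peaks reached a height of 22. The 2 Glra1 positions may belong to 1 region. No peak was assigned to Glra2, Glra4 or Glrb.

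By location, 37 of 77 receptor peaks were in gene bodies (48.1%, 36.5 to 59.7) and 40 lay outside, and the background over all peaks is 42.5% in gene bodies. The receptor interval contains that value. Of the outside peaks, 36 were intergenic, 3 in distal promoters and 1 in a proximal promoter. The median Dnmt1-Dam height was 9 inside (interquartile range 8 to 10) and 9 outside (8 to 11). The mean log2 height was 3.20 inside and 3.36 outside, a difference of -0.16 that became -0.05 once the 3 glycine receptor peaks were left out. Heights of 15 or more were found at 3 of 37 peaks inside (8.11%, 1.70 to 21.9) and at 7 of 40 outside (17.5%, 7.34 to 32.8), intervals that overlap widely. Peaks with a Dam-only height of 4 or more, the top of that range, numbered 2 inside and 4 outside, and this share of receptor peaks (7.79%, 2.91 to 16.2) contains the background of 5.66% in its interval.

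Between the transmitter families the share of peaks inside genes ran from 0% to 80.0%. GABA receptors had 8 of 10 peaks in gene bodies (80.0%, 44.4 to 97.5), acetylcholine receptors 6 of 12 (50.0%, 21.1 to 78.9), glutamate receptors 22 of 43 (51.2%, 35.5 to 66.7), serotonin receptors 1 of 9 (11.1%, 0.281 to 48.2) and glycine receptors 0 of 3 (0%, up to 70.8). The GABA interval lies above the 42.5% of all peaks, but it overlaps the serotonin interval, and the difference between families was not tested. The families also differ in gene length. The genes with a peak had a median body of 158 kb in the GABA family and of 66.0 kb in the serotonin family, and the serotonin genes Htr1a and Htr1b span only 4.44 kb and 1.16 kb. The acetylcholine family, at 16.9 kb, had the shortest median and as many peaks inside as outside. However, 7 of its 12 peaks belong to Chrm3, whose body is 484 kb, so this median over genes does not describe most of its peaks. The part of length in these shares was not tested.

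**Figure D2:**
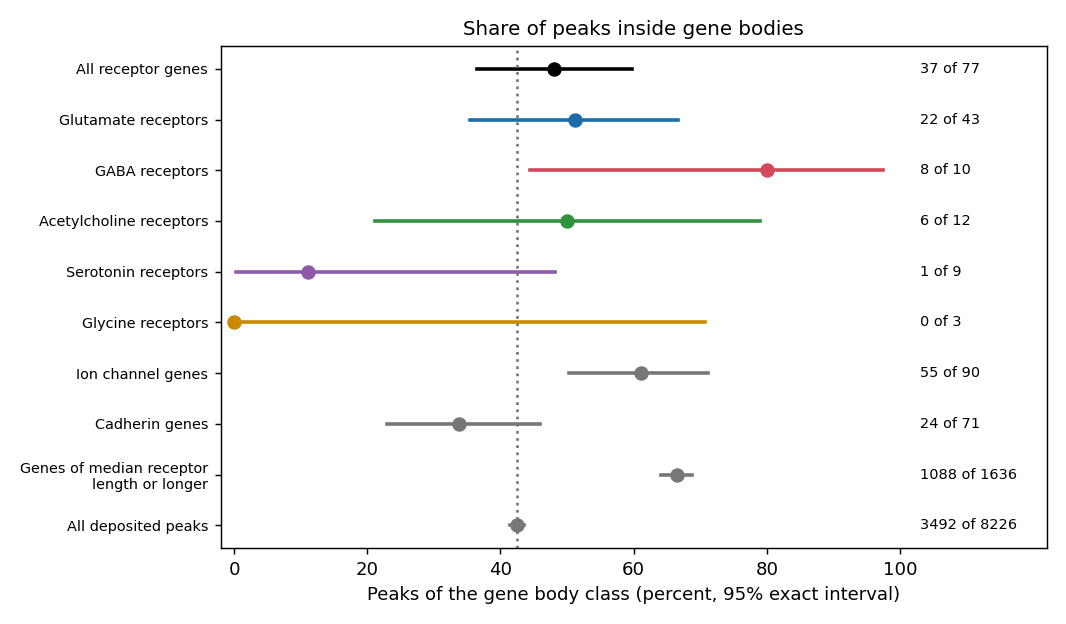
Share of peaks of the gene body class, in percent, for receptor genes and each transmitter family, then for ion channel genes (Kcn, Scn, Cacn and Hcn), cadherin and protocadherin genes, genes at least as long as the median receptor gene with a peak (218 kb) and all peaks. Points are shares, lines exact 95% intervals and the dotted line the share in all peaks (42.5%). The GABA point (80.0%) is the highest of the families and the glycine (0%) and serotonin (11.1%) points are the lowest.

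Receptor genes are long, and long genes take more of their peaks inside. The median body of the 34 genes was 218 kb, against 41.9 kb for all 4903 transcripts with an assigned peak. Among all peaks assigned to genes at least as long as that receptor median, 66.5% (64.2 to 68.8) lay in gene bodies, which is above the receptor interval. For genes under 50 kb, receptors had 4 of 8 peaks inside (50.0%, 15.7 to 84.3) and all peaks 25.6% (24.2 to 27.0). For genes of 50 to 200 kb, receptors had 5 of 14 inside (35.7%, 12.8 to 64.9) and all peaks 50.7% (48.8 to 52.7), and in both classes the receptor interval contains the share over all peaks. For genes of 200 to 500 kb, receptors had 16 of 37 peaks inside (43.2%, 27.1 to 60.5) and all peaks 63.8% (61.0 to 66.6), and these intervals do not meet, while those of the other 3 length classes overlap. Of those 37 receptor peaks, 7 belong to Grik1 and 7 to Chrm3, and peaks that share a gene are not independent. For genes of 500 kb or more the shares were 12 of 18 (66.7%, 41.0 to 86.7) and 72.3% (68.5 to 75.9), with overlap. The 34 gene bodies together cover 10.4 Mb, with 3.57 body peaks per Mb (2.51 to 4.92). Genes of at least the median receptor length held 4.01 per Mb (3.78 to 4.26), within that interval. All genes with an assigned peak held 7.14 per Mb (6.91 to 7.38) and ion channel genes 5.34 (4.02 to 6.95). The first lies above the receptor interval, and the interval of the second overlaps it. The densities count every peak between the start and end of its gene, also those of a promoter class. Over all peaks these are 3537, against 3492 of the gene body class, and for receptors both counts are 37. Genes enter these densities only if they have an assigned peak. Peaks assigned to ion channel genes of the Kcn, Scn, Cacn and Hcn series were inside in 55 of 90 cases (61.1%, 50.3 to 71.2), and those of cadherin and protocadherin genes in 24 of 71 (33.8%, 23.0 to 46.0). The receptor interval overlaps both.

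**Figure D3:**
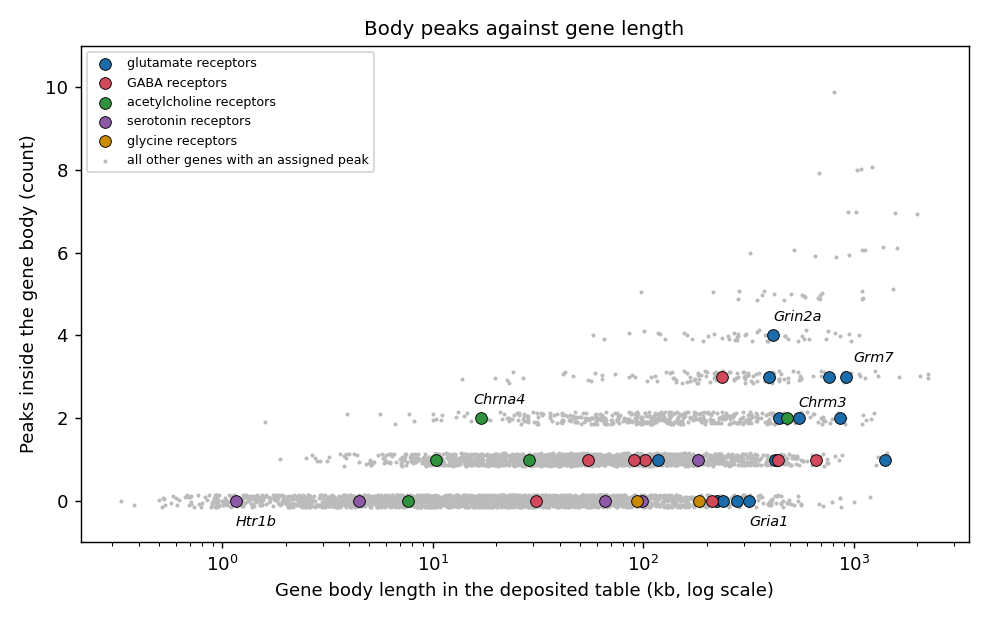
Number of peaks inside the gene body against body length on a log axis, with 1 point per gene that has an assigned peak. Colored points are receptor genes by family and grey points all other genes, spread slightly in height for display. Grin2a, with 4 body peaks, is the receptor gene with the most, while Gria1 (319 kb) and Htr1b (1.16 kb) have none.

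Glutamate receptors gave the largest group. Within it, NMDA receptors, the calcium-permeable channels of synaptic plasticity, had 6 of 7 peaks in gene bodies (85.7%, 42.1 to 99.6). All 7 belong to 2 genes of 200 to 500 kb. The interval contains the share over all peaks (42.5%) and that over all peaks at genes of this length (63.8%). Grin2a, whose product sets the kinetics of adult NMDA receptors, is on chromosome 16 (9577803 to 9992626) and had 4 of its 5 peaks inside. Counted from the start, the first was of 15 (Dnmt1-Dam) against 1 (Dam-only) at 197 kb, the next of 10 against 3 at 300 kb, and the others of 9 against 1 and 16 against 7 near 365 kb. The last 2 are 80 bp apart, and the Dam-only height of 7 at one of them was the highest at any receptor peak. The fifth peak, of 7 against 1, lay in LINE sequence 87.9 kb beyond the gene's end. Grin2b, which encodes the subunit that predominates before birth, had peaks of 17 against 3 and 8 against 2 inside its body on chromosome 6. The first, at 136048461 and 75.1 kb from the start, lay in the shelf of a CpG island and was the highest receptor peak inside a gene.

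AMPA receptors, which carry most fast excitatory current, had 1 of 6 peaks inside (16.7%, 0.421 to 64.1). The intervals of the NMDA and AMPA shares overlap, each rests on 7 peaks or fewer, and both contain the 42.5% of all peaks. Gria1 on chromosome 11 (56825193 to 57143746) had 3 peaks, all upstream, of 15 (Dnmt1-Dam) against 1 (Dam-only) at 317 kb, 7 against 1 at 245 kb and 9 against 2 at 140 kb. Gria3, another AMPA subunit gene, on the X chromosome, had 2, of 9 against 1 at 1041 kb upstream in LINE sequence and of 8 against 1 at 557 kb upstream. Gria2, whose edited product makes AMPA receptors impermeable to calcium, had the single inner peak, of 8 against 1 in a simple repeat.

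Kainate receptors, which modulate transmitter release, had 4 of 11 peaks inside. Grik1 on chromosome 16 (87896142 to 88290503) shared with Chrm3 the largest number of peaks of any receptor gene, 7. Its 3 inner peaks were of 9 (Dnmt1-Dam) against 2 (Dam-only), 7 against 1 and 10 against 1. The 4 others lay within 68.0 kb upstream, of 9 against 1 and 7 against 1 at 30.4 and 30.5 kb, 9 against 1 at 40.4 kb in a SINE and 15 against 5 at 68.0 kb in a SINE. Grik1 was thus marked on both sides of its start, with the highest Dnmt1-Dam and the highest Dam-only value at the same upstream position. Grik3 had its 3 peaks upstream, of 12 against 1 at 118 kb and of 9 against 1 and 7 against 1 near 45 kb. Grik4, a high-affinity subunit gene, had 1 peak, of 9 against 1, inside its body.

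The delta receptors are relatives of the glutamate channels that bind cerebellins and organize synapses. Grid1 on chromosome 14 (35633322 to 36394301) had 3 inside, of 9 (Dnmt1-Dam) against 1 (Dam-only), 8 against 2 and 9 against 1. Its other 2, of 12 against 1 and 8 against 1, lay 200 bp apart in the distal promoter class, 8.67 and 8.47 kb upstream. The promoter peaks of Grid1 were thus the highest and the joint lowest of its 5.

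**Figure D4:**
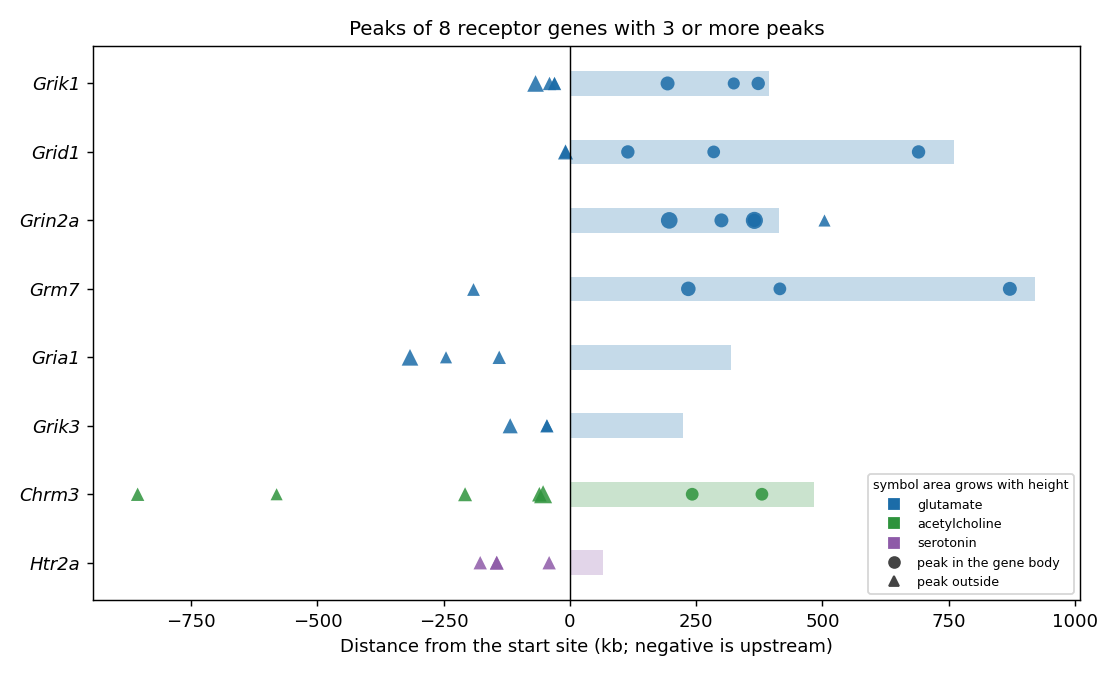
Positions of peaks relative to the start site, in kb, for 8 receptor genes with 3 or more peaks. Pale bars are gene bodies, circles are peaks in the body, triangles are peaks outside, and the symbol area grows with the Dnmt1-Dam height. Gria1, Grik3 and Htr2a have upstream peaks alone, and the other 5 genes have peaks in the body and outside.

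Metabotropic glutamate receptors had 7 of 10 peaks inside (70.0%, 34.8 to 93.3), with heights from 7 to 11. This interval also contains the 42.5% of all peaks. Grm7, a presynaptic inhibitory receptor on chromosome 6, had 3 inside, of 11 (Dnmt1-Dam) against 1 (Dam-only), 8 against 1 and 10 against 2, and 1 upstream, of 8 against 1. Grm8, of the same inhibitory group, had peaks of 10 against 1 and 9 against 1, and Grm5, which signals through phospholipase C, of 8 against 1 and 7 against 1, all inside. The 2 peaks of Grm3, of 11 against 1 and 8 against 1, lay 100 bp apart and 492 kb upstream. Each of these genes is long, from 240 to 922 kb, and none of their peaks had a Dam-only height above 2.

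The GABA receptor peaks had Dnmt1-Dam heights from 7 to 11 with a median of 7.5, against a median of 9 for all peaks. A height of 15 was reached by 0 of 10 (0%, up to 30.8), an interval that contains the background of 8.66% over all peaks. Gabra5, an alpha subunit gene, had a peak of 7 (Dnmt1-Dam) against 1 (Dam-only) inside its body, 1.37 kb from the start, and Gabrg3, a gamma subunit gene, had 10 against 1 inside, in a SINE. Gabrb2, a beta subunit gene, had a peak of 7 against 1 at 113 kb beyond its end, and Gabrb1, of the same subunit class, had 7 against 1 inside, in LINE sequence. The rho subunits, known from the retina, gave Gabrr3 a peak of 7 against 1 inside and Gabrr1 a peak of 7 against 1 upstream at 32.6 kb, in the shore of a CpG island. That shore peak and the shelf peak of Grin2b were the only 2 receptor peaks with a CpG island context (2.60%, 0.316 to 9.07), and the background over all peaks is 6.61%.

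Among acetylcholine receptors, the 4 peaks of nicotinic channel genes were all inside the body (100%, 39.8 to 100), against 25.6% of all peaks at genes under 50 kb. They lay between 85.1% and 94.5% of the way from the start to the end of the gene. Over all peaks inside genes, 1669 lay before the midpoint of the gene and 1868 beyond it. The 4 nicotinic peaks come from 3 genes, and neither difference was tested. Chrna4, the alpha subunit of the main nicotinic receptor of brain, had 2 peaks 90 bp apart, both of 12 (Dnmt1-Dam) against 1 (Dam-only). Chrna9, of cochlear hair cells, had 9 against 1 in a SINE, and Chrnb3, an accessory subunit gene, had 7 against 1. These genes are short, from 10.4 to 28.7 kb. Of the 8 muscarinic peaks, which belong to G protein coupled receptor genes, 2 were inside (interval 3.19% to 65.1%), an interval that overlaps the nicotinic one, and 7 of the 8 belonged to Chrm3, the receptor of glands and smooth muscle on chromosome 13 (9875859 to 10360049).

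Chrm3 had 2 inner peaks, both of 8 (Dnmt1-Dam) against 1 (Dam-only). Upstream it had 18 against 1 at 53.1 kb in an LTR element, 11 against 4 at 60.5 kb in a SINE, 10 against 1 at 208 kb in an LTR element, 7 against 1 at 581 kb and 9 against 2 at 856 kb. The 2 inner peaks were thus lower than 4 of the 5 upstream ones, and the 3 peaks above 9 at this gene were all in retroelements. Chrm4, an inhibitory receptor of the striatum, had 11 against 2 on chromosome 2 at 91761121, the proximal promoter peak described above. With 1 library per group, none of these orders within a gene has a replicate check.

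Serotonin receptor peaks ran from 7 to 10, and 0 of 9 reached 15 (0%, up to 33.6), an interval that contains the background of 8.66% over all peaks. Htr2a, the cortical receptor targeted by psychedelic drugs, had 4 of them on chromosome 14, all upstream of the gene (75040647 to 75106666). They were of 9 (Dnmt1-Dam) against 2 (Dam-only) at 41.1 kb, 10 against 1 at 145 kb, 9 against 1 at 145 kb and 9 against 1 at 178 kb. Htr1f had the only peak inside, of 9 against 1 in LTR sequence, and 1 of 10 against 1 upstream at 105 kb in a SINE. The remaining 3 lay beyond the gene's end, at 689 kb for Htr1a (8 against 1), an autoreceptor of serotonin neurons, at 471 kb for Htr1b (7 against 1) and at 269 kb for Htr7 (9 against 1). In this family 7 of 9 peaks were more than 100 kb from the gene (77.8%, 40.0 to 97.2), against 25 of 77 over all receptors (32.5%, 22.2 to 44.1), and the background over all peaks is 23.1%.

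Peaks outside the genes were mostly upstream. Of 40 receptor peaks beyond the gene, 35 lay upstream and 5 downstream, which is 87.5% upstream (73.2 to 95.8), and the background over all peaks outside their gene is 62.8%. Glutamate receptors contributed 20 of 21, acetylcholine receptors 6 of 6, serotonin receptors 5 of 8, glycine receptors 3 of 3 and GABA receptors 1 of 2. In genes at least as long as the receptor median the upstream share was 80.5% (76.9 to 83.8), within the receptor interval, and in the ion channel genes it was 48.6% (31.4 to 66.0), below it. How a peak was assigned to a gene is not given in the sources used here. None of the 77 positions lay inside another gene of the deposited table, which lists only genes with an assigned peak.

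Retroelements, the repeats that spread through an RNA copy, were named at 8 of 37 peaks inside (21.6%, 9.83 to 38.2) and at 14 of 40 outside (35.0%, 20.6 to 51.7), and the intervals overlap. Together this was 22 of 77 (28.6%, 18.8 to 40.0), and the background over all peaks is 35.0%. SINEs were named at 7 receptor peaks (9.09%, 3.73 to 17.8) and at 17.1% of all peaks, LINEs at 10 (13.0%, 6.41 to 22.6) and at 8.18%, and LTR elements at 6 (7.79%, 2.91 to 16.2) and at 10.8%. The receptor intervals contain each of these values over all peaks. No repeat was named at 52 of 77 receptor peaks (67.5%, 55.9 to 77.8) and at 60.5% of all peaks. Without the 3 glycine receptor peaks the retroelement share of receptor peaks was 25.7%.

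Close neighbors were part of the receptor counts. Within 1 kb of each other lay 8 sets of 2 peaks, at Chrna4, Glra1, Grid1, Grik1, Grik3, Grin2a, Grm3 and Htr2a, spanning 80 to 470 bp. They hold 16 of 77 receptor peaks (20.8%), and the share over all peaks is 11.9%. With 1 peak kept per run the receptors had 69 peaks.

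Many family members had no peak. The RefSeq gene table lists 85 protein-coding receptor genes of these families, and 34 had a peak by name (40.0%, 29.5 to 51.2). By accession 5 more peaks, which the file leaves without a gene name, belong to 3 further glutamate receptor genes. Grik2, a kainate subunit gene, had a peak of 10 (Dnmt1-Dam) against 1 (Dam-only) inside, and 2 upstream of 9 against 3 and 7 against 1. Grin3a, an NMDA subunit gene, had 9 against 3 inside, and Gria4, an AMPA subunit gene, had 7 against 1 upstream. With them 37 of 85 genes had a peak (43.5%, 32.8 to 54.7), and the background over all 21035 genes, counted with accessions, is 22.7%. Inside the body 21 of 85 had a peak by name (24.7%, 16.0 to 35.3), which leaves out Grik2 and Grin3a. The background for body peaks, counted with accessions, is 11.5%, so the 2 shares are not on the same basis. Genes were not matched on length here, and receptor genes with a peak are long, so these shares do not by themselves show a preference for receptor genes. With accessions, glutamate receptors had a peak at 17 of 26 genes, GABA receptors at 8 of 19, acetylcholine receptors at 5 of 21, serotonin receptors at 5 of 14 and glycine receptors at 2 of 5. Among the genes with no peak were Grin1, the obligatory NMDA subunit, Chrna7 and Htr3a.

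Other genes of the same synapses also had peaks, in shares whose intervals overlap that of the receptor genes. Auxiliary and scaffold proteins had a peak at 13 of 36 genes (36.1%, 20.8 to 53.8), led by Shank3, a postsynaptic scaffold with 18 (Dnmt1-Dam) against 1 (Dam-only) inside, Nlgn1, a neuroligin (6 peaks, the highest of 14 against 1 inside) and Shisa6, an AMPA receptor auxiliary protein (13 against 1 inside). Transmitter transporters had a peak at 8 of 22 genes (36.4%, 17.2 to 59.3), led by Slc6a13, a GABA transporter (15 against 3, in a SINE of the body), Slc1a1, a neuronal glutamate transporter (10 against 1, intergenic) and Slc6a2, the noradrenaline transporter (10 against 1, inside). Enzymes of transmitter synthesis and breakdown had a peak at 7 of 20 (35.0%, 15.4 to 59.2), led by Gad1, which makes GABA (11 against 5, inside), Chat, which makes acetylcholine (5 peaks, the highest of 10 against 3, inside), and Th, which makes the precursor of dopamine (10 against 1, outside the gene in LTR sequence). Other amine receptors and the metabotropic GABA receptors had a peak at 10 of 20 (50.0%, 27.2 to 72.8), led by Gabbr2 (4 peaks, all inside, the highest of 24 against 1 in a SINE), Adra1b (18 against 4, intergenic) and Adra2a (5 peaks, all outside, the highest of 15 against 1). Of these 4 intervals 3 contain the background of 22.7%, and that of the other amine receptors lies above it. For peaks inside the body the order differed. Auxiliary and scaffold proteins had such a peak at 11 of 36 genes (30.6%, 16.3 to 48.1), an interval above the background of 11.5%. Transporters had 5 of 22 (interval 7.82% to 45.4%), enzymes 4 of 20 (5.73% to 43.7%) and the other amine receptors 2 of 20 (1.23% to 31.7%). The last 3 intervals contain the background for body peaks. Genes were not matched on length in these comparisons either. Scaffold genes with a peak spanned from 22.1 kb (Nlgn3) to 1358 kb (Dlg2). Whether any of the 4 lists differs from genes of like length was not tested.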

How the data were processed

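DamID libraries of Dnmt1-Dam and Dam-only mouse embryos, 1 per group, were analysed from the peak table the authors deposited. The tools CASAVA and BWA and the build mm9 are named per the submitters' processing notes. Neither the peak caller nor its cutoffs nor any scaling is given in the sources used here. Peak heights as deposited are whole numbers per library and were treated as signal, not counts. Location class, CpG island context, repeat class and gene are the authors' columns. Per the labels' protocols, the DNA was amplified by 15 cycles of PCR.

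Shares have exact Clopper-Pearson and densities exact Poisson intervals at 95% (scipy 1.17.1, pandas 2.3.3). No p-value was computed. The log2 ratio used heights scaled to their sums (81171 for Dnmt1-Dam and 12018 for Dam-only) and a pseudocount of 1. Gene names and family sizes are from RefSeq (GRCm38.p6), matched by accession, gene ID or symbol; a binding-protein gene whose name fits the pattern was left out of the 85. Peak sequences need an mm9 genome and are not analysed here. The summary steps were tested on simulated data. The members, lists and the rule for named genes (3 or more peaks, the 10 highest peaks, the highest genes of each family and list, promoter or CpG island context, high Dam-only height) were chosen with earlier results of these data known; most other receptor genes are also named. A few receptor genes are not reported here individually and enter only the counts. No column of per-sample values was left unused. Alternatives varied the height minimum, close neighbors, Dam-only height, naming, single genes, pseudocount and scaling.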

Additional observations from a re-analysis of the deposited data

How the results depend on the processing

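Of 81 recalculated values of 13 results, 64 stayed within the limits set for the reported value and 17 moved beyond them. These limits were the interval of the value, 1.5 times for a count, and a separate range, given below, for the difference in mean log2 height. Most of the 17 came from the height minimum, which keeps fewer peaks. With a Dnmt1-Dam height of 9 or more there were 48 receptor peaks, 2.12 per Mb of body, a median height of 10 and a median log2 ratio of 0.37, and 100% of the 3 GABA receptor peaks left were inside. With 15 or more there were 10 peaks at 8 genes, 30.0% inside, 50.0% in retroelements, 0.290 per Mb, a median height of 17.5, a median log2 ratio of 0.72 and 0% of the 1 acetylcholine receptor peak inside. GABA and serotonin receptors have no peak of 15 or more and no value there. Counting body peaks alone left 21 receptor genes. The median log2 ratio was -0.041 at a Dam-only height of 1, 2.17 without scaling and 0.42 with heights summing to at least 10. Wherever an alternative dropped peaks, the scaling used the sums over the peaks that were kept. Those log2 ratios do not share a scale with the reported median of 0.21. Their shift from it therefore does not show a weaker or stronger ratio at the peaks kept. Leaving out Chrm3, Grik1 or the glycine receptors, keeping 1 peak per 1 kb run and adding peaks by accession moved none of the values recalculated with them beyond the limits set. For the difference in mean log2 height, inside minus outside, the limits were -0.65 to 0.32 around -0.16, and not an exact interval. With only 10 peaks, at heights of 15 or more, they were about as wide, -0.92 to 0.0012 around -0.46. They thus do not follow the number of peaks. That all alternatives of this difference stayed within them does not show that it is stable. The glycine and upstream alternatives were chosen after seeing the data; upstream peaks were 93.3% of those within 100 kb. No paired analysis was possible because each group is 1 library. Unknown depth and low heights limit all single peaks.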
